A study of Mus musculus with 8 samples.

Results

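The core circadian clock genes were read in RNA from the gastrocnemius, a calf muscle, of aged mice that had received a transplant of hematopoietic stem cells, the blood-forming cells of the bone marrow. The members are 10 genes chosen by symbol as rows of the raw count table: Arntl, Npas2, Per1, Per2, Per3, Cry1, Cry2, Nr1d1, Dbp and Ciart. All 10 were found among the 35949 named genes of the table, and all 10 were among the 14064 genes that passed the filter on low counts. The T3TG group, so named by the genotype label, holds 4 libraries, and the series describes its donor cells as overexpressing SIRT3, a mitochondrial deacetylase. The WT group, likewise named, holds 4 libraries from recipients of control cells. Both groups share the transplantation and the aged host, and neither the age in months, the sex, the preparation of the hosts nor the promoter of the transgene is given in the labels. The library titles begin with T3 in the T3TG group and with Mx1 in the WT group, without an explanation.

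The mammalian clock is a feedback loop of transcription. Arntl (BMAL1) pairs with CLOCK or with its relative NPAS2 and activates genes that carry E-box sequences, among them the Per and Cry genes, Nr1d1, Dbp and Ciart. PER and CRY proteins then inhibit the activators, and NR1D1 (REV-ERBα) represses Arntl and other genes through ROR elements. Most cells of the body run this loop, so the level of each gene in a muscle depends on the hour at which it was taken, and Arntl peaks at about the time when Dbp and Nr1d1 are low. The hour of sampling is not given in the labels, and whether it was the same for all animals is not given either.

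Sequences around the transcript start of 5 members are shown because they hold, or lack, the elements through which the loop is known to act on these genes. They come from the RefSeq promoter table, cover 250 bases before to 50 bases after the transcript start, are on build GRCm38.p6 and are written 5′ to 3′ on the strand of the gene. The capitals mark matches to the searched elements, which were the E-box CACGTG, the related E-prime box CACGTT, the D-box TTATGTAA or TTACGTAA, the ROR element core TAGGTCA or TGGGTCA, and the cyclic AMP element TGACGTCA, on both strands. The E-box, the E-prime box, the cyclic AMP element and the second D-box form share the letters ACGT, and no element contains another. The Ciart window (chr3:95882179-95882478, minus strand), the Npas2 window (chr1:39194022-39194321, plus strand), the Nr1d1 window (chr11:98775328-98775627, minus strand), the Per1 window at the first of its 2 listed starts (chr11:69098699-69098998, plus strand) and the Arntl window at the second of its 2 listed starts (chr7:113207261-113207560, plus strand) read as follows.
Ciart: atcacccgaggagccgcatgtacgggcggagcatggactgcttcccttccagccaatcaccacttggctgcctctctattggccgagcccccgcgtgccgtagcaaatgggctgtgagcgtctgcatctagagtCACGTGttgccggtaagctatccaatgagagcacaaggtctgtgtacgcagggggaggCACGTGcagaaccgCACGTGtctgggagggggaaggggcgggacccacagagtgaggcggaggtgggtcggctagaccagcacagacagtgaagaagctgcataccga
Npas2: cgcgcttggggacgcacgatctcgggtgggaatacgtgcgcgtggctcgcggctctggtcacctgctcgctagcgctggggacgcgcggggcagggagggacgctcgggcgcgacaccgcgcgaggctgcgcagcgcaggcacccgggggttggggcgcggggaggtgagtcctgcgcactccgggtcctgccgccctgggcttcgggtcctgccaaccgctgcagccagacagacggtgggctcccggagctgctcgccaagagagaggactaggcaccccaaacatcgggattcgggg
Nr1d1: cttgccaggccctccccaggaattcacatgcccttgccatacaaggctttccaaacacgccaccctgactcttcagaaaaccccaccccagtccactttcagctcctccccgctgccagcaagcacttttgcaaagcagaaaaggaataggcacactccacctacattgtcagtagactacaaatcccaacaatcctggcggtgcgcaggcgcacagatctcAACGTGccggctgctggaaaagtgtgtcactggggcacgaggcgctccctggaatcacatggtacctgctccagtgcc
Per1: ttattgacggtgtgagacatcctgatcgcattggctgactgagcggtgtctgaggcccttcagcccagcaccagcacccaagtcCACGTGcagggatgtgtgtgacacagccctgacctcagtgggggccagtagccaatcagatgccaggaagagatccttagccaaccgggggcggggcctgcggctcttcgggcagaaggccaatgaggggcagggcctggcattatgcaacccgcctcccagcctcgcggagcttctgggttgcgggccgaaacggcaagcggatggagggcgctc
Arntl: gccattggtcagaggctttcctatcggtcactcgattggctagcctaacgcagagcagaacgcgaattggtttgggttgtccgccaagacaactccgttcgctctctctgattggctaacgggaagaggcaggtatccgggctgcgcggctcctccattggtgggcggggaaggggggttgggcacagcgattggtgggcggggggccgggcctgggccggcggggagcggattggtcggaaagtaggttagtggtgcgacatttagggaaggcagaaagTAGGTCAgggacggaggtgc

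The Ciart window held 3 E-boxes, which begin at -116, -58 and -44, counted from the start at 1 with no position 0. The Per1 window held 1 E-box at -166, and the Nr1d1 window held 1 E-prime box, read as AACGTG, at -28. The Arntl window held 1 ROR element core at 31, after the start, and the Npas2 window held no match. The windows at the other listed starts of Per1 and Arntl, which are not shown, held no match either, nor did the window of Dbp. Of the 9 members with an entry in the table, 3 had an E-box (Per1, Cry1, Ciart) and 3 an E-prime box (Cry1, Cry2, Nr1d1), beside 7.15% and 4.68% of all 32851 promoters in it. Members are counted once per gene with a match at any listed start, whereas the shares count promoters, so the measures are unlike. Per3 had a pair of D-boxes, an element found in 1.06% of promoters, and no member had a cyclic AMP element, which 1.79% of promoters hold. The ROR element core was found in 6.45% of promoters. Per2 is named only. A match describes the letters of the window and is not a site.

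Counts per library summed to between 16.2 and 28.1 M. Levels are given as CPM, counts scaled to the library total with TMM factors, and groups were compared with edgeR's quasi-likelihood test, adjusted by the Benjamini-Hochberg method over all 14064 genes with a threshold of 0.05. Whether the libraries come from different animals is not stated, and the p-values therefore reflect only how these samples vary, which may be technical. T3TG 2 and T3TG 3 stand apart: 97.5% and 98.0% of their counts from 10 to 99 were even numbers, against 50.5% to 52.5% in the other 6 libraries, and results that rest on them are also given for the other 6. Sirt3 itself averaged 17.7 ± 2.50 CPM in T3TG muscle and 18.9 ± 2.49 CPM in WT muscle (SD, n = 4 each), a readout of host muscle as well as of donor cells. Muscle markers, led by Acta1 and Myh4, summed to 142941 to 180022 CPM in T3TG and 161528 to 177875 CPM in WT. The sums of fibro-adipogenic progenitor, macrophage and endothelial markers did not overlap between the groups, whereas those of adipocyte and red cell markers did. Fibro-adipogenic progenitor markers, led by Dcn and Col3a1, summed to 1010 to 1293 CPM in T3TG against 746 to 904 CPM in WT, and 4 of 9 passed the threshold as higher. Macrophage markers, led by Lyz2 and C1qa, summed to 239 to 423 CPM in T3TG against 180 to 229 CPM in WT, with 10 of 10 log2 fold changes positive and 0 past the threshold (8 at an unadjusted p under 0.05). Endothelial markers, led by Pecam1 and Cdh5, summed to 419 to 486 CPM in T3TG against 321 to 410 CPM in WT. Adipocyte markers had 1029 to 1248 CPM in T3TG and 855 to 1299 CPM in WT, sums made up mostly of Lpl and Fabp4. All 10 of their log2 fold changes were positive, with a median of 1.53, 4 at an unadjusted p under 0.05 and 0 past the threshold. Adipoq (1.92, SE 0.71) and Cidec (2.03, SE 0.79) were among those 4. The groups did not overlap for 1 of the 10 (Cebpa), beside 4.78% of all genes tested. T3TG 1 did not share the rise of Adipoq and Cidec, at 2.06 and 0.89 CPM. The WT libraries had 1.26 to 3.44 CPM of Adipoq and 1.47 to 2.59 CPM of Cidec. Of all genes tested, 49.1% had a positive log2 fold change, 5.88% were higher at an unadjusted p under 0.05 and 0.0711% were past the threshold as higher. Red cell markers, led by Hbb-bs and Hba-a1, summed to 67.6 to 523 CPM in T3TG, highest in T3TG 3, and 70.6 to 133 CPM in WT. No marker of these lists was at 0 in any library, and their part in the clock gene values was not tested. In whole muscle, fewer cells of a type and less RNA per cell cannot be told apart.

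The members covered a wide range of levels, compared here per kilobase of exon because longer transcripts collect more reads. Nr1d1 was highest at 73.2 CPM per kb in T3TG and 74.7 CPM per kb in WT, followed by Dbp, an output activator of the PAR bZIP family, at 31.0 CPM per kb in T3TG and 29.5 in WT. Per1 had 15.7 CPM per kb in T3TG and 17.5 in WT, Cry2 8.07 in T3TG and 8.66 in WT, Cry1 5.88 in T3TG and 6.25 in WT, and Arntl 4.15 in T3TG and 4.87 in WT. The lowest were Ciart at 2.39 CPM per kb in T3TG and 3.90 in WT, Per3 at 1.88 in T3TG and 2.08 in WT, Per2 at 1.79 in T3TG and 1.59 in WT, and Npas2 at 0.92 in T3TG and 0.63 in WT. The ranges over the 8 libraries did not overlap between Nr1d1 and Dbp or between Per1 and Cry2. All other neighbours in this order overlapped in range, although Dbp lay above Per1, Cry2 above Cry1, Cry1 above Arntl and Ciart above Per3 within each of the 8 libraries.

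No member passed the adjusted test between the groups: 0 of 10 were called by edgeR, where 0.0711% of all genes tested did (10 genes, all higher in T3TG), and DESeq2 also called 0 of 10 against 0.747% of all genes. At an unadjusted p under 0.05, 1 member was higher in T3TG (Npas2) and 1 lower (Ciart), against 8.33% of all genes in either direction, 5.88% higher and 2.45% lower. Of the members, 3 log2 fold changes were positive and 7 negative. Their median was -0.10, beside a median of -0.00 over all genes tested. The groups overlapped for all 10 members, whereas 4.78% of all genes had groups that did not overlap.

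**Figure D1:**
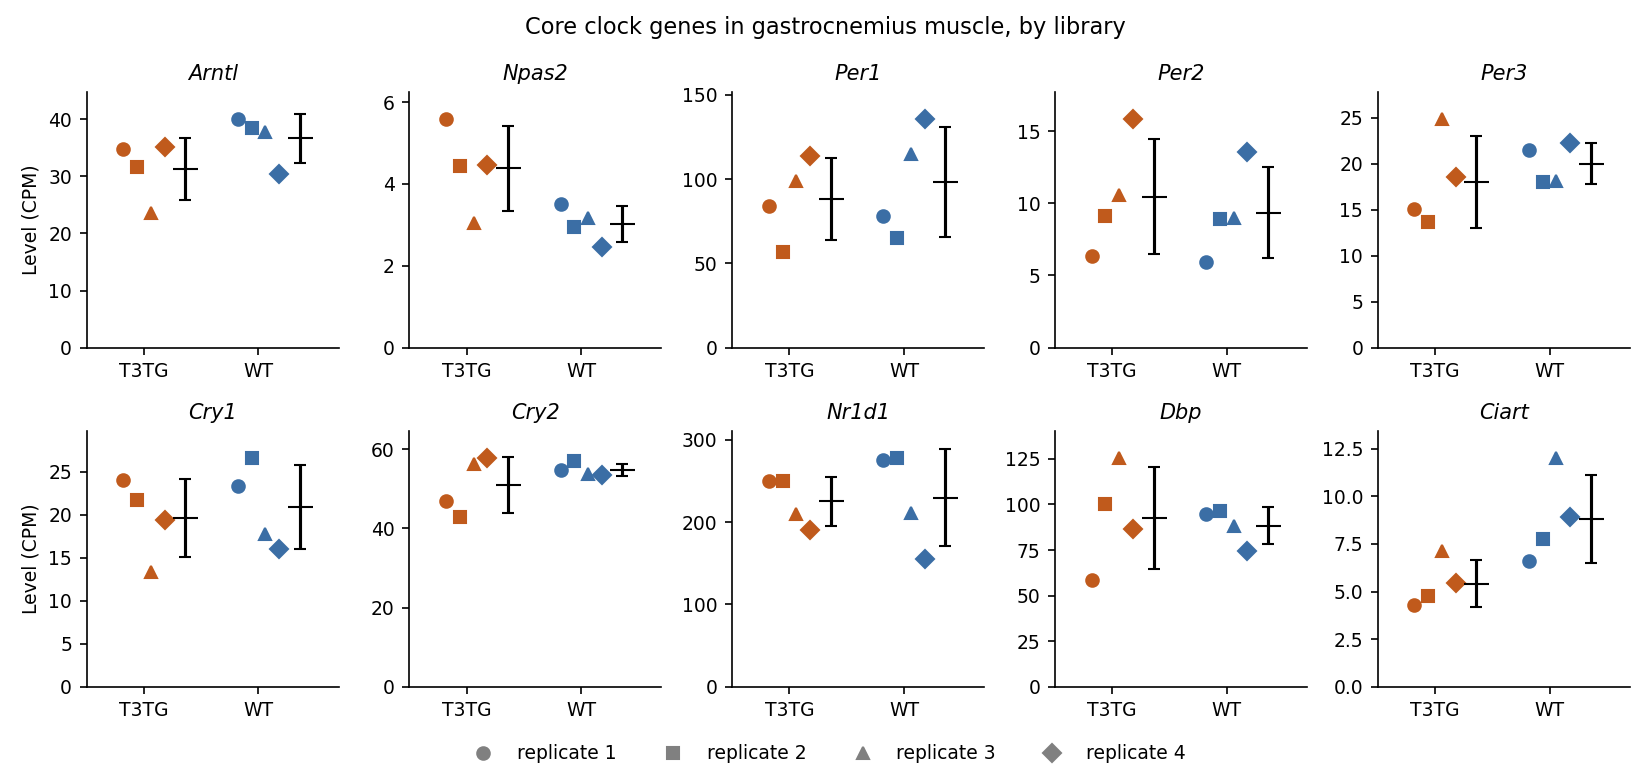
Level of each core clock gene in CPM by library, T3TG at the left and WT at the right of every panel, with each group's mean and SD. Of the 10 members, Ciart and Npas2 show the widest relative separation of group means, and the 4 T3TG and 4 WT points still overlap in both.

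Ciart (CHRONO, a repressor of the BMAL1 complex, chromosome 3, 95878500 to 95882257) had the largest difference of the 10. Its level was 4.31, 4.79, 7.12 and 5.43 CPM in T3TG 1 to 4, against 6.60, 7.78, 12 and 8.93 CPM in WT 1 to 4. Of the 4 T3TG libraries, 3 were below every WT library, and T3TG 3 lay between WT 1 and WT 2. Its log2 fold change was -0.70 (SE 0.21), a 0.617-fold level with a 95% interval of 0.456 to 0.836, and the adjusted p was 0.283 (unadjusted p = 0.00396). An exact two-sided permutation test of log2 levels gave p = 0.0571, where 4 against 4 libraries can reach 0.0286. In the 6 libraries without T3TG 2 and T3TG 3 the log2 fold change was -0.86 (SE 0.25, edgeR adjusted p = 0.739). Across 17 alternatives its log2 fold change stayed negative, between -0.87 and -0.52, and the lowest adjusted p was 0.0615, reached without a filter on low counts. These levels rest on 84 to 196 counts in T3TG and 117 to 190 counts in WT. The 84 and the 196 belong to T3TG 2 and T3TG 3, the libraries with mostly even counts.

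Npas2, the CLOCK relative that pairs with BMAL1 (chromosome 1, 39193702 to 39363240), stood in the opposite direction. It had 5.58, 4.45, 3.05 and 4.47 CPM in T3TG 1 to 4, against 3.5, 2.96, 3.16 and 2.47 CPM in WT 1 to 4. T3TG 1, 2 and 4 were above every WT library, and T3TG 3 fell between WT 2 and WT 3. Its log2 fold change of 0.54 (SE 0.23) came with an edgeR adjusted p of 0.550 and an exact permutation p of 0.0857. It was 0.74 (SE 0.24) in the 6 libraries, and between 0.39 and 0.78 in the 17 alternatives. Npas2 was counted 74 to 119 times in T3TG libraries and 49 to 62 times in WT libraries. T3TG 2 and T3TG 3, with mostly even counts, had 78 and 84.

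Arntl, the obligate activator (chromosome 7, 113178471 to 113314126), had 34.8, 31.6, 23.5 and 35.1 CPM in T3TG 1 to 4, against 39.9, 38.5, 37.7 and 30.4 CPM in WT 1 to 4. Of the WT libraries, 3 exceeded all T3TG libraries, WT 4 lay below 3 of the 4 T3TG libraries, and T3TG 3 was lowest. The log2 fold change was -0.23 (SE 0.13, edgeR adjusted p = 0.668). It was -0.11 (SE 0.11) without T3TG 3 alone, -0.24 (SE 0.14) without T3TG 2 alone and -0.07 (SE 0.12) without both.

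The repressors gave no difference past the threshold. Per1 (chromosome 11, 69095108 to 69109965), a PER repressor that also responds to glucocorticoid hormones, had 84.1, 56.8, 98.9 and 114 CPM in T3TG 1 to 4 and 78.0, 65.0, 115 and 135 CPM in WT 1 to 4. Its log2 fold change was -0.15 (SE 0.30, 95% interval -0.88 to 0.57, edgeR adjusted p = 0.934). Per2 (chromosome 1, 91415977 to 91459351) had 6.37, 9.12, 10.6 and 15.8 CPM in T3TG 1 to 4 and 5.92, 8.93, 8.97 and 13.5 CPM in WT 1 to 4. Within each group both genes varied more than the groups differed, and for Per2 the highest library exceeded the lowest 2.67 times. The log2 fold change of Per2 was 0.15 (SE 0.30, edgeR adjusted p = 0.933). The library titles hold a first number, whose meaning the labels do not give, and it is 6 in T3TG 2, 3 and 4 and in WT 4. These 4 libraries had the highest Per2 of the 8, a split noticed after the values had been seen, and with that number as a block the log2 fold change of Per2 was -0.31 (SE 0.23). The 4 libraries did not overlap with the others for 5.72% of all genes tested, and the part of this number in the values was not tested beyond the fits with it as a term.

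Per3 (chromosome 4, 150997018 to 151044707), the third PER gene, had 15.0, 13.7, 24.8 and 18.5 CPM in T3TG 1 to 4 and 21.5, 18.0, 18.2 and 22.3 CPM in WT 1 to 4. T3TG 3 was highest and T3TG 2 lowest of all 8 libraries, so that the T3TG range enclosed the WT range. The log2 fold change was -0.15 (SE 0.17, edgeR adjusted p = 0.859), and it was -0.35 (SE 0.13, edgeR adjusted p = 0.596) without T3TG 3 and -0.04 (SE 0.16) without T3TG 2. Cry1 (chromosome 10, 85131700 to 85185054), a strong inhibitor of the BMAL1 complex, had 24.0, 21.7, 13.4 and 19.4 CPM in T3TG 1 to 4 and 23.3, 26.5, 17.7 and 16 CPM in WT 1 to 4. Its lowest library was T3TG 3 and its highest WT 2, and the log2 fold change was -0.09 (SE 0.20, edgeR adjusted p = 0.940). Cry2 (chromosome 2, 92403646 to 92434085), the other CRY inhibitor, was the steadiest member, at 46.9, 43.0, 56.4 and 57.7 CPM in T3TG 1 to 4 and 54.8, 57.0, 53.7 and 53.4 CPM in WT 1 to 4. The WT libraries lay within the T3TG range, and the log2 fold change was -0.10 (SE 0.10, edgeR adjusted p = 0.823).

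Nr1d1 (chromosome 11, 98767932 to 98775377) had 249, 251, 210 and 191 CPM in T3TG 1 to 4 and 276, 277, 211 and 155 CPM in WT 1 to 4. Its WT libraries spanned more than its T3TG libraries, and the log2 fold change was -0.03 (SE 0.18, 95% interval -0.43 to 0.38, edgeR adjusted p = 0.982). The sign of this value changed under scaling by library totals alone, where it was 0.03. Dbp (chromosome 7, 45705100 to 45710203) had 58.5, 101, 125 and 86.5 CPM in T3TG 1 to 4 and 94.7, 96.3, 88.1 and 74.3 CPM in WT 1 to 4. T3TG 3 and T3TG 2 were the highest and T3TG 1 the lowest of all libraries, so the T3TG range enclosed the WT range here as well. Its log2 fold change was 0.07 (SE 0.21, edgeR adjusted p = 0.955) and -0.29 without T3TG 2 and T3TG 3. Part of the exons of Nr1d1 and Dbp lies opposite those of Thra (8.55% of Nr1d1 exon bases) and Sphk2 (18.0% of Dbp exon bases), and 4.67% of Cry2 exon bases lies opposite D930015M05Rik. The strand setting of the counting is not given in the sources used here, so reads from these stretches cannot be told apart.

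**Figure D2:**
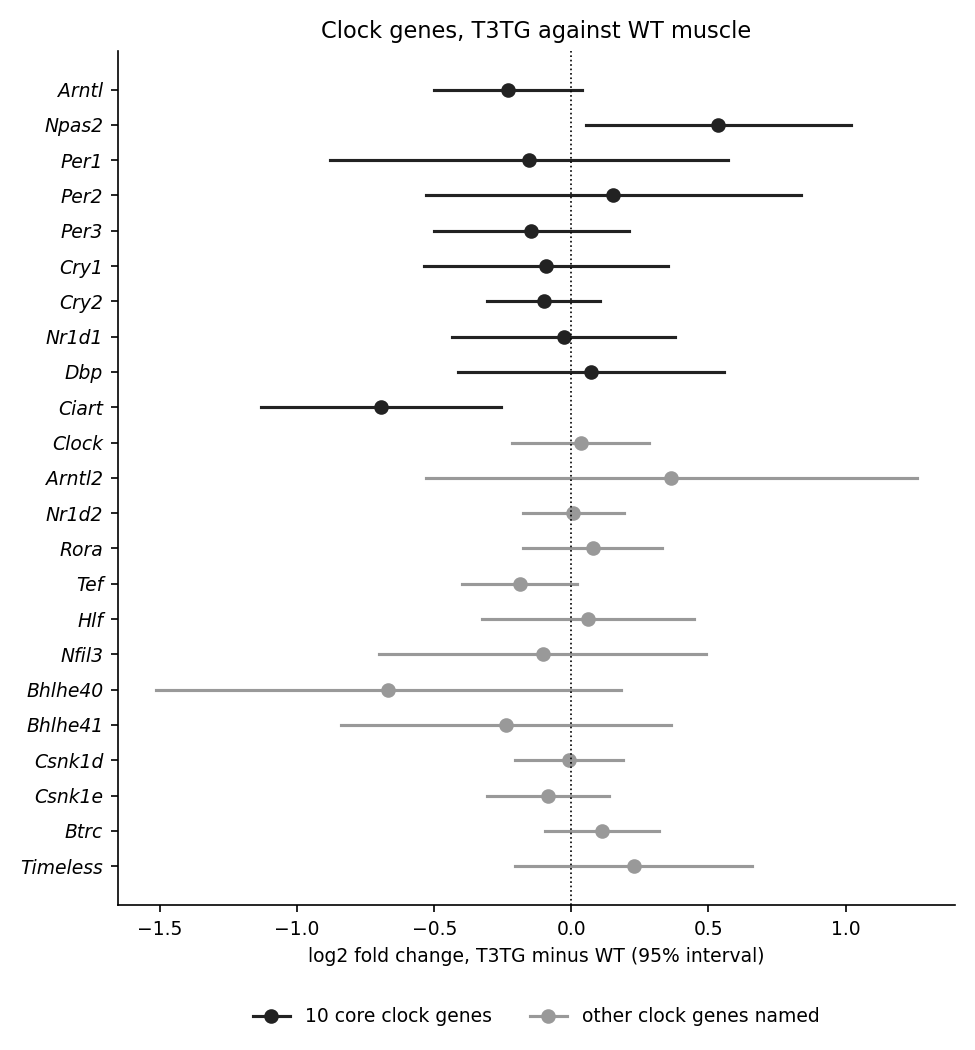
Log2 fold change (T3TG minus WT) with its 95% interval for the 10 members and the other clock genes named in the text. The interval lies wholly below 0 for Ciart (-1.13 to -0.26) and wholly above 0 for Npas2 (0.05 to 1.02), before adjustment over all genes, and it includes 0 for all others shown.

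The 17 other clock genes listed beside the members were read in the same way. Of these, 15 were tested (Rorb and Fbxl21 were below the filter on low counts), and 0 passed the threshold or had an unadjusted p under 0.05, with 7 log2 fold changes positive, 8 negative and a median of -0.01. Clock, the partner of BMAL1, averaged 45.8 ± 7.71 CPM in T3TG and 44.7 ± 3.94 CPM in WT (SD, n = 4 each), a log2 fold change of 0.03 (SE 0.12). Its relative Arntl2 had 0.36 (SE 0.42). Nr1d2, the second REV-ERB repressor, had 110 ± 9.37 CPM in T3TG and 110 ± 7.63 CPM in WT, and Rora, an activator that opposes it, had a log2 fold change of 0.08 (SE 0.12). Bhlhe40 (DEC1), an E-box repressor, had the largest difference of this list, at 176, 136, 116 and 94.8 CPM in T3TG 1 to 4 against 263, 269, 200 and 99.9 CPM in WT 1 to 4. WT 4 fell among the T3TG libraries, the 4 libraries with title number 6 were the 4 lowest, and the log2 fold change of -0.67 (SE 0.35) had an edgeR adjusted p of 0.682. Its relative Bhlhe41 (DEC2) had -0.24 (SE 0.26). The Dbp relatives Tef and Hlf had -0.19 (SE 0.10) and 0.06 (SE 0.18), and Nfil3, the repressor that competes with them at D-boxes, had -0.10 (SE 0.25). The kinases Csnk1d and Csnk1e, which phosphorylate PER proteins, had -0.01 (SE 0.09) and -0.08 (SE 0.10). Btrc, a ubiquitin ligase subunit that acts on PER, had 0.11 (SE 0.10), and Timeless had 0.23 (SE 0.20).

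The members varied between libraries of the same group more than most genes. For 9 of 10 the SD of log2 CPM within groups was above the median of all genes tested, where 50% of genes are, and for 4 of 10 it was above the 75th percentile, where 25.0% are. Their dispersion, edgeR's measure of spread beyond counting error, was more than 2 times the value fitted for genes of the same level in 5 members, against 5.23% of all genes. These were Per1 (6.12 times), Per2 (3.23 times), Dbp (3.07 times) and Nr1d1 and Cry1 (both 2.27 times). Npas2 and Cry2 were below the fitted value, at 0.85 and 0.86 times.

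**Figure D3:**
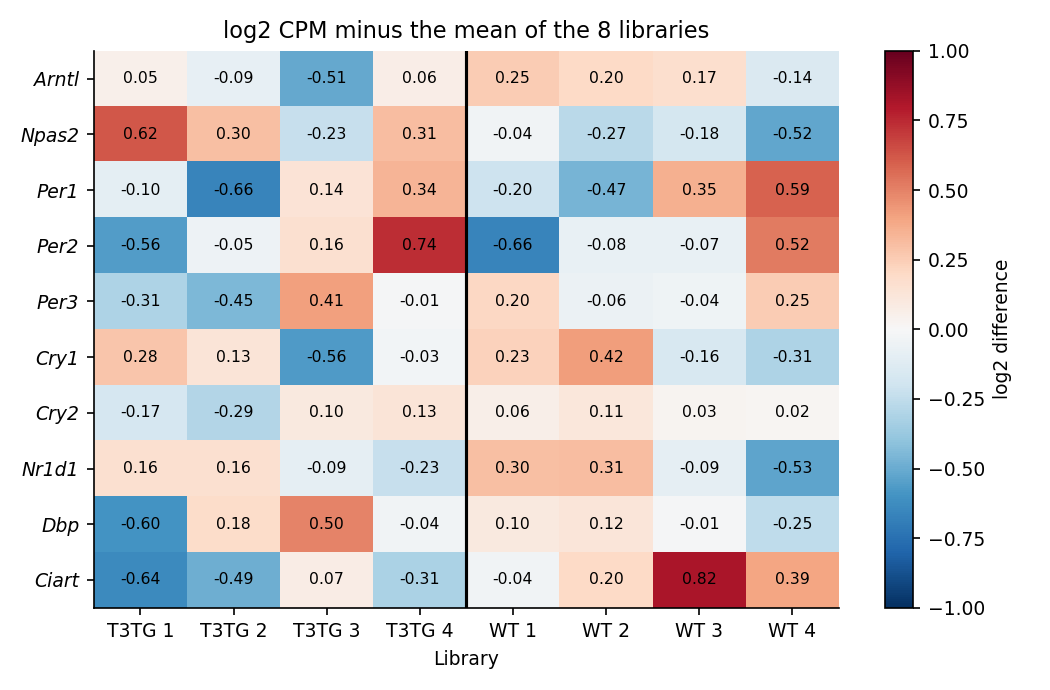
Log2 deviation of each member from its own mean over the 8 libraries, with T3TG 1 to 4 in the left columns and WT 1 to 4 in the right. T3TG 3 combines low Arntl (-0.51) and Cry1 (-0.56) with high Dbp (0.50) and Per3 (0.41), and WT 4 combines low Npas2 (-0.52) and Nr1d1 (-0.53) with high Per1 (0.59) and Per2 (0.52).

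The libraries differed in clock pattern within each group. T3TG 3 had the lowest Arntl and Cry1 and the highest Dbp and Per3 of all 8. WT 4 had the lowest Nr1d1 and Npas2 and the highest Per1, with Arntl also second lowest. T3TG 1 had the highest Npas2 and the lowest Dbp and Ciart, and WT 2 had the highest Nr1d1 and Cry1 and Per1 next to lowest. WT 1 had the highest Arntl and the lowest Per2. No member ordered the 8 libraries the same way as another.

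Across the 8 libraries, Nr1d1 ran against Per1 and Per2 and with Cry1, relations that were picked out after their values had been seen. No library lay between 211 and 249 CPM of Nr1d1, and T3TG 1, T3TG 2, WT 1 and WT 2 were above that gap. The libraries above it were also the 4 lowest for Per1 and the 4 highest for Cry1. For Nr1d1 and Per1, Pearson r was -0.87 (exact permutation p = 0.00551) and Spearman rho -0.86 (exact p = 0.0107), and r was -0.77 without WT 2 and WT 4, the libraries farthest from the Nr1d1 median, and -0.95 in the 6 libraries without T3TG 2 and T3TG 3. For Nr1d1 and Per2, r was -0.79 (exact p = 0.0191), rho -0.81 (exact p = 0.0218), r without the same pair of libraries -0.89, and r in the 6 libraries -0.81. For Nr1d1 and Cry1, r was 0.75 (exact p = 0.0316), rho 0.81 (exact p = 0.0218), r without that pair 0.67, and r in the 6 libraries 0.93. Centring the values within each group gave -0.88, -0.81 and 0.76 for Per1, Per2 and Cry1. None passed adjustment over the 14063 other genes correlated with Nr1d1 (adjusted p of 0.466, 0.571 and 0.633 for r), of which 7.44% had an unadjusted p under 0.05.

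**Figure D4:**
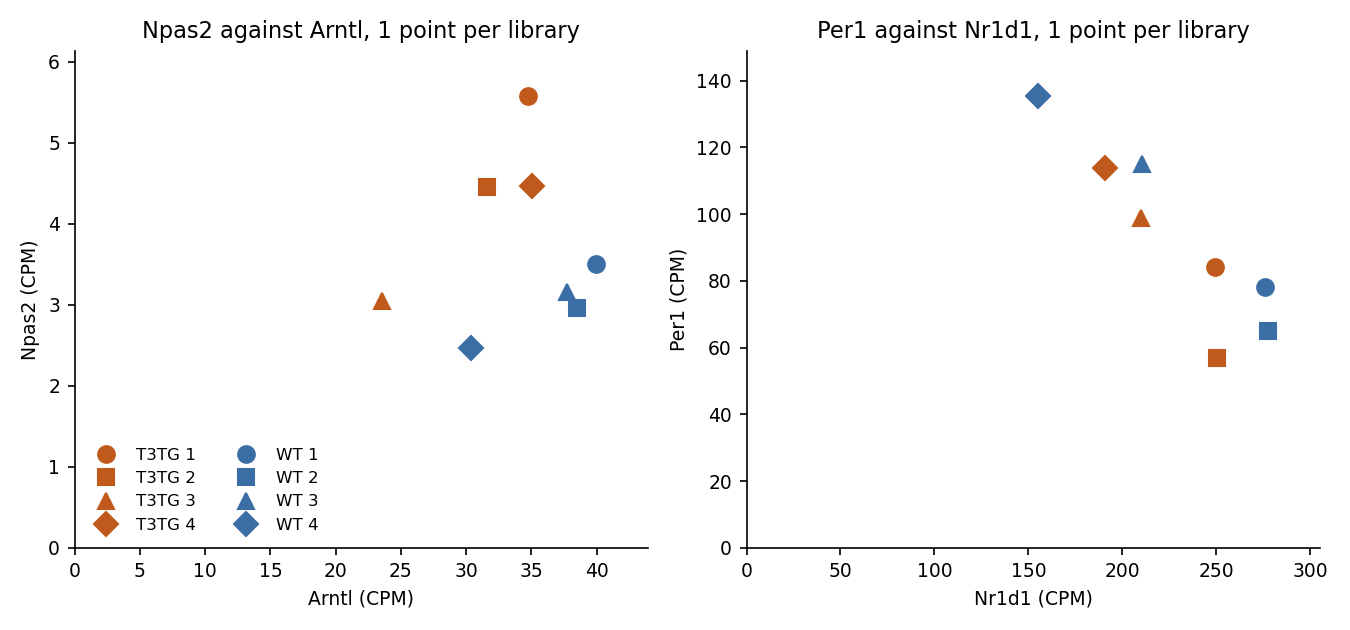
Levels in CPM of Npas2 against Arntl (left) and Per1 against Nr1d1 (right), 1 point per library, T3TG in orange and WT in blue. All 4 T3TG points lie above the WT points in Npas2 per Arntl (0.127 to 0.160 against 0.0768 to 0.0876), and Per1 is lower where Nr1d1 is higher in both groups (r = -0.87).

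Around Arntl, the activator, the relation with the lowest p among the members was that with Cry1. Arntl and Cry1 had r = 0.79 (exact p = 0.0172, adjusted p = 0.349 over all genes) and rho = 0.67 (exact p = 0.0831), but r was 0.17 without T3TG 3 and WT 4, so the relation rests on those libraries. Arntl had r = -0.40 with Dbp, -0.22 with Per1, -0.40 with Per2 and -0.38 with Per3, and 0.45, 0.05 and 0.08 with Nr1d1, Cry2 and Ciart, each with an exact p above 0.05. The value for Dbp was 0.61 in the 6 libraries without T3TG 2 and T3TG 3. With Npas2 it had r = 0.19 (exact p = 0.663) over the 8 libraries and r = 0.92 after centring within groups, where the difference between the groups is removed. Npas2 and Ciart had r = -0.84 (exact p = 0.0103, adjusted p = 0.982 over all genes correlated with Npas2), rho = -0.83 (exact p = 0.0154), -0.70 without T3TG 1 and T3TG 4, and -0.64 after centring within groups. In all, 45 pairs of members were computed, 23 with a positive and 22 with a negative r, and 7 had an unadjusted exact p under 0.05. Among all other genes tested, the share with such a p ran from 3.57% for Dbp to 11.7% for Arntl. None of the 10 members had a gene, member or not, whose correlation passed the threshold adjusted over all genes.

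Ratios of a pair of members within a library do not depend on the scaling of libraries. Ciart per Npas2 was 0.773, 1.08, 2.33 and 1.22 in T3TG 1 to 4 and 1.89, 2.63, 3.80 and 3.62 in WT 1 to 4, and T3TG 1, 2 and 4 lay below every WT library. The log2 difference was -1.21 (exact two-sided permutation p = 0.0571), and it was -1.57 in the 6 libraries, where the smallest p possible is 0.0667. Ciart and Npas2 had the lowest and the highest log2 fold change of the members. This ratio therefore repeats differences already given and is not separate support for them. Dbp per Arntl, an output over its activator, was 1.68, 3.18, 5.32 and 2.47 in T3TG 1 to 4 and 2.37, 2.50, 2.34 and 2.44 in WT 1 to 4. The WT libraries were close together and the T3TG libraries lay on both sides of them, with a log2 difference of 0.26 (exact permutation p = 0.629). Nr1d1 per Arntl gave 0.24 (exact permutation p = 0.257). Npas2 per Arntl, chosen after its values had been seen and therefore given without a test, was 0.160, 0.141, 0.130 and 0.127 in T3TG 1 to 4 and 0.0876, 0.0768, 0.0838 and 0.0812 in WT 1 to 4, without overlap and with a ratio 1.69 times higher in T3TG on average. The groups also did not overlap, with T3TG above, for the ratio to Arntl of 4.98% of the other genes tested, and by the log2 difference in this ratio Npas2 ranked 703 of 14063 genes. Of the 45 pairs of members, 2 (4.44%) had ratios without overlap, Arntl to Npas2 and Npas2 to Cry1.

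The genes most like Arntl across the 8 libraries, among 9460 genes with a mean of at least 5 CPM, were Tex2 (r = 0.98), Uhrf1bp1 (0.97), Nsd1 (0.97), Lrrc20 (0.97), Cacng6 (0.97) and Col22a1 (0.96). The most opposed were Ctsh (-0.98), Pfkl (-0.96), Ankrd54 (-0.95), Myl12b (-0.95), Lgals3 (-0.94) and Prkch (-0.94). For Dbp they were Sumf2 (0.96), Dnajc25 (0.92), Sf3b3 (0.91), Ache (0.91), Senp3 (0.91) and Mrps31 (0.89), and at the other end Itgb6 (-0.93), Mta3 (-0.92), Ppan (-0.92), Pdzd8 (-0.92), Cnnm4 (-0.91) and Mtrr (-0.91). None of these values passed adjustment over all genes, with lowest adjusted p of 0.297 for Arntl and 0.698 for Dbp by the exact permutation test. T3TG 3 was the lowest library for all 6 genes like Arntl. It was the highest for all 6 opposed to Arntl and all 6 like Dbp. In the 6 libraries without T3TG 2 and T3TG 3, r was 0.88 to 0.98 and -0.94 to -0.76 for the Arntl lists. For the Dbp lists it was 0.78 to 0.95 and -0.93 to -0.86. All genes of a library share its depth and its makeup of cells.

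The listed clock outputs and hormone- or temperature-responsive genes held no gene past the threshold between the groups. Of 12 clock outputs in muscle, 16 glucocorticoid targets, 10 temperature-responsive genes and 13 immediate early genes, 0 passed in edgeR. At an unadjusted p under 0.05 the temperature list had 2 higher, the chaperones Hsp90aa1 (0.22, SE 0.09) and Hspa1b (0.84, SE 0.34), and 1 lower, the cold-induced RNA-binding protein Rbm3 (-0.24, SE 0.11), as log2 fold changes, where 5.88% of all genes were higher and 2.45% lower. The other lists had 0. Their most abundant genes were the titin-cap protein Tcap (log2 fold change -0.16, SE 0.12) and the glucose transporter Slc2a4 (0.01, SE 0.09), the ubiquitin ligase Fbxo32 (0.05, SE 0.11) and glutamine synthetase Glul (0.09, SE 0.44), the chaperones Hspa8 (0.09, SE 0.08) and Hspa5 (0.12, SE 0.08), and the transcription factors Nr4a1 (-0.20, SE 0.14) and Jun (0.23, SE 0.13).

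Several of these genes followed Nr1d1 across libraries in the opposite sense, a pattern noticed after the values had been seen. Trim63 (MuRF1), a muscle ubiquitin ligase, had 292, 259, 365 and 437 CPM in T3TG 1 to 4 and 244, 238, 324 and 462 CPM in WT 1 to 4, in exactly the reverse order of Nr1d1 over the 8 libraries. Its r with Nr1d1 was -0.96 (exact permutation adjusted p = 0.0872 over all genes) and rho -1.0, and r was -0.96 without WT 2 and WT 4. Usp2, a clock output that encodes a deubiquitinase, had 144, 187, 212 and 250 CPM in T3TG 1 to 4 and 153, 155, 217 and 261 CPM in WT 1 to 4, with r = -0.92 (exact permutation adjusted p = 0.315), rho = -0.81 and r = -0.91 without the same pair of libraries. Pdk4, which limits glucose oxidation, had 267, 363, 1094 and 1537 CPM in T3TG 1 to 4 and 381, 280, 751 and 1064 CPM in WT 1 to 4. Ucp3, a mitochondrial carrier, had 74.6, 101, 257 and 337 CPM in T3TG 1 to 4 and 93.8, 81.4, 226 and 277 CPM in WT 1 to 4. T3TG 3, T3TG 4, WT 3 and WT 4 were the 4 highest libraries for both genes. Foxo1, a fasting-activated transcription factor, had 21.3, 48.2, 118 and 117 CPM in T3TG 1 to 4 and 21.4, 20, 24.6 and 132 CPM in WT 1 to 4. T3TG 3, T3TG 4 and WT 4 were its 3 highest libraries and T3TG 2 the next, so the 4 libraries with title number 6 were the highest, as for Per2. No pooled correlation is given for Pdk4, Ucp3 and Foxo1 because their values fall apart into high and low libraries. Nr1d1 also had a gap, 31.9% of its range. T3TG 1, T3TG 2, WT 1 and WT 2 had 249 to 277 CPM of Nr1d1, and the other libraries had 155 to 211 CPM. The same sets of libraries were low and high for Trim63, Usp2, Pdk4 and Ucp3. Whether the r values above reflect this split or a graded relation was not tested. Of the glucocorticoid targets (Foxo1 included) 14 of 16, and of the clock outputs (Pdk4 and Ucp3 included) 11 of 12, had a negative r with Nr1d1. The medians were -0.71 and -0.66, beside 51.1% of all genes and a median of -0.01. Lists of other kinds also leaned this way, with 12 of 13 skeletal muscle markers (median -0.24), 5 of 5 red cell markers (-0.35), 8 of 10 temperature-responsive genes (-0.26) and 7 of 9 fibro-adipogenic progenitor markers (-0.12).

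**Figure D5:**
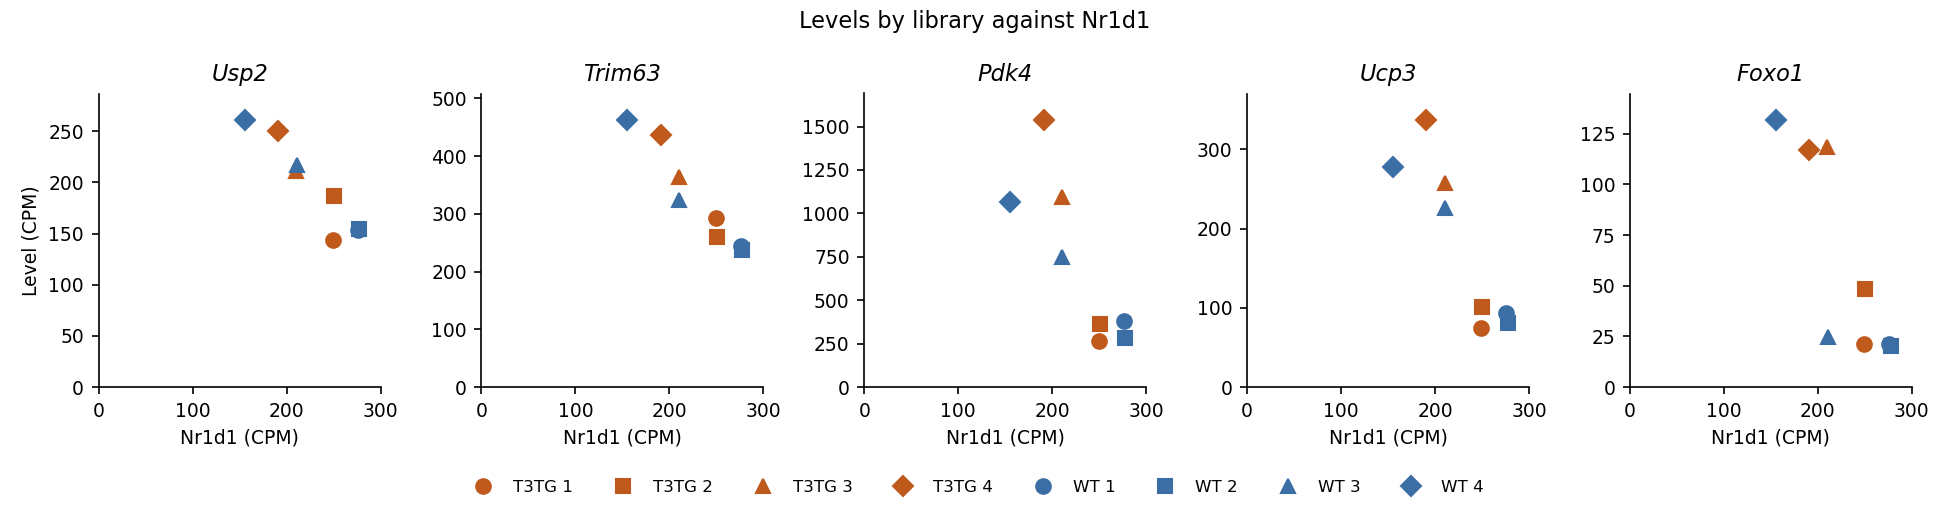
Levels in CPM of Usp2, Trim63, Pdk4, Ucp3 and Foxo1 against Nr1d1, 1 point per library, T3TG in orange and WT in blue. Nr1d1 runs from 191 to 251 CPM in T3TG and from 155 to 277 CPM in WT, with no library between 211 and 249 CPM. WT 4, with the lowest Nr1d1 (155 CPM), has the highest Trim63 (462 CPM).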

How the data were processed

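RNA from the gastrocnemius muscle was measured in 8 libraries (4 T3TG, 4 WT), as polyA-enriched paired reads per the labels' protocols. The submitters' processing notes list HISAT2 2.2.1, HTSeq 0.9.1, DESeq2 1.34.0 and build mm10. The sources used here name neither the annotation nor the strand setting. The authors deposited raw counts per gene symbol in 35976 rows, and 27 rows holding a date in place of a symbol (0.0885% to 0.0961% of counts) were left out.

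After the filter filterByExpr, TMM factors scaled the libraries, and edgeR 4.0.16 (R 4.3.3) compared T3TG with WT by its quasi-likelihood test, with group as the only term and Benjamini-Hochberg adjustment over 14064 genes. DESeq2 1.42.0 was an alternative, and the others were other scaling, other filters, a title-number term and left-out libraries. CPM came from these counts and TMM factors, and correlations from log2 CPM with a prior count of 2, with exact permutation over all pairings of 8 libraries. Exon lengths came from GENCODE M21, coordinates from RefSeq GRCm38.p6.

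The members and lists were chosen with earlier results of these data known. Named genes were all members, the other clock genes tested (of which 2 are not reported here), of the 4 response lists those at an unadjusted p under 0.05 and the 2 most abundant, the 6 genes most like and most opposed to Arntl and Dbp, and the 2 most abundant of each marker list. Others are named as chosen after their values were seen. The procedures were tested on simulated data.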

Additional observations from a re-analysis of the deposited data

How the results depend on the processing

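No alternative called a member, and Ciart, Npas2, Arntl, Per3 and Cry2 kept their direction in all 17. Npas2 and Ciart had the fewest counts of the members (49 to 119 and 84 to 196), those of T3TG 2 and T3TG 3 with their mostly even counts included. Genes past the threshold numbered 10 higher and 0 lower in the fit as reported. The higher count was 52 with library totals alone, 104 without a filter, 99 with DESeq2, 3 with the replicate block on the title number, 1 with a term for number 6, 0 without T3TG 2 and 3, and 0 to 37 with 1 library left out (37 without T3TG 1). The lower count was 3 without a filter, 6 with DESeq2, 1 with the block, 1 with the number 6 term, and 0 to 1 with 1 library left out. With the counts of T3TG 2 and 3 halved, 10 genes were higher and 0 lower, as also with a stricter filter. The causes were not tested.

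The following log2 fold changes turned their direction. Without T3TG 2 and 3 they were 0.0068 for Per1, 0.062 for Cry1, -0.29 for Dbp, -0.034 for Nr1d2, -0.089 for Hlf, 0.044 for Nfil3 and 0.051 for Csnk1d. With the replicate block and the number 6 term Arntl kept its direction, at -0.072 and -0.089. With the replicate block the turned values were -0.31 for Per2, 0.044 for Cry1, 0.22 for Nr1d1, -0.012 for Dbp, -0.090 for Nr1d2 and 0.17 for Bhlhe41. With the number 6 term they were -0.25 for Per2, 0.13 for Cry1, 0.23 for Nr1d1, -0.087 for Dbp, -0.071 for Nr1d2, -0.0059 for Hlf, 0.16 for Bhlhe41 and 0.017 for Csnk1d. With library totals alone they were 0.027 for Nr1d1 and 0.040 for Csnk1d. With 1 library left out the ranges were -0.31 to 0.038 for Per1, -0.11 to 0.39 for Per2, -0.21 to 0.060 for Cry1, -0.18 to 0.074 for Nr1d1, -0.11 to 0.24 for Dbp, -0.021 to 0.15 for Clock, -0.041 to 0.062 for Nr1d2, -0.022 to 0.16 for Rora, -0.19 to 0.19 for Hlf, -0.27 to 0.093 for Nfil3 and -0.066 to 0.057 for Csnk1d.

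The correlation of Arntl was -0.070 with Cry2 and -0.049 with Ciart under library totals alone, -0.20 and -0.58 for the same genes after centring within groups, and 0.61 with Dbp without T3TG 2 and 3. With 1 library left out it ranged from -0.090 to 0.52 with Cry2, -0.16 to 0.23 with Ciart, -0.51 to 0.29 with Dbp, -0.028 to 0.31 with Npas2 and -0.61 to 0.22 with Per3. The log2 difference of Dbp per Arntl was -0.24 without T3TG 2 and 3 and -0.029 to 0.52 with 1 library left out. That of Ciart per Npas2 was -1.52 to -0.99.

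Whether the title numbers shared by the groups pair the libraries is not given in the labels. Deviations from the group means correlated at 0.12 for T3TG 1 and WT 2 (number 2). They correlated at -0.05, 0.15 and 0.07 for T3TG 2, 3 and 4 with WT 4 (number 6). Libraries with unlike numbers gave -0.19 to 0.08. Number 6 is held by T3TG 2, 3 and 4, and deviations within a group cancel out, so these values cannot decide the question. Within numbers 2 and 6 the log2 differences were -0.84 and -0.64 for Ciart and 0.89 and 0.65 for Npas2. Number 2 sets T3TG 1 alone against WT 2 alone, and number 6 sets T3TG 2, 3 and 4 against WT 4 alone. T3TG 1 was the highest and WT 4 the lowest library for Npas2.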

Other observations

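The genes most like and most opposed to Nr1d1 over the 8 libraries were listed after its relations had been seen. Mylip, a ubiquitin ligase for the LDL receptor, had 23.1, 25.2, 18.0 and 15.6 CPM in T3TG 1 to 4 and 27.9, 27.7, 18.9 and 13.9 CPM in WT 1 to 4 (r = 0.98, exact permutation adjusted p = 0.0997 over 14063 genes). Lmod2, a leiomodin that lengthens actin thin filaments in heart and skeletal muscle, had 163, 158, 235 and 250 CPM in T3TG 1 to 4 and 126, 111, 190 and 350 CPM in WT 1 to 4 (r = -0.98, exact permutation adjusted p = 0.0872). Both genes overlapped between the groups, with log2 fold changes of -0.11 and 0.05. T3TG 1, T3TG 2, WT 1 and WT 2, the libraries above the gap in Nr1d1, were also the highest for Mylip and the lowest for Lmod2. Fem1c, Tnfsf10, Zfp398, Rnf168 and Mamstr followed Mylip at r of 0.94 to 0.97, and Trim63, Mn1, Bcl2l1, Ip6k3 and Fibin followed Lmod2 at -0.96 to -0.95. Among the other clock genes, Bhlhe40 and Bhlhe41 had r of 0.81 and 0.82 with Nr1d1 and Nfil3 had -0.85, with adjusted p of 0.571, 0.529 and 0.501 by the exact permutation test.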
